A study of Mus musculus with 8 samples.

Results

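Rsu1 encodes a leucine-rich repeat protein that sits at focal adhesions, and the 10 genes described here are Rsu1, the complex it joins, actin partners of that complex, and the galectin gene Lgals1. The members are Rsu1, Lims1, Parva, Ilk, Vcl, Tln1, Zyx, Pxn, Flna and Lgals1, taken by symbol from the 17041 genes of the authors' deposited table, and all 10 were found. Rsu1 and Lgals1 were chosen by the authors' comparison, which called them lower with Roseburia intestinalis, and the other 8 were added because their proteins work with RSU1 or with actin at the same sites. Differences between the communities in these genes are therefore given as descriptions, without a test.

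Focal adhesions are the sites where cells grip the matrix through integrins. Talin and kindlin switch integrins on, and a complex of integrin-linked kinase (Ilk), PINCH-1 (Lims1) and α-parvin (Parva) then binds the integrin tail and recruits actin, with RSU1 bound to PINCH-1. Paxillin, vinculin, zyxin and filamin carry signals and force between this site and the actin cables. In the gut wall the smooth muscle layer is rich in such attachments, and epithelial cells and fibroblasts hold them as well.

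The tissue was the proximal large intestine of 8 ApoE knockout mice, bred germ-free, gavaged once at 8 weeks of age and dissected at 26 weeks, with 1 RNA library per mouse. The core group (3 mice) received a bacterial community without butyrate producers, and the second group (5 mice) the same community with R. intestinalis, which makes butyrate. Every mouse lacks ApoE, so the groups differ by the added bacterium and not by genotype. The sources used here do not give diet, sex or cage, and nothing states that mice of a group were housed apart, so the spread below is that between these libraries. By their sample names the core mice carry numbers 3 to 5. Apoe itself was at 11.1 to 27.1 in the 8 libraries.

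Estimated depth ran from 4605421 reads in core replicate 1 to 15348685 in core plus R. intestinalis replicate 3. The fewest reads behind a member's value were about 120, for Zyx in core replicate 1. Library composition differed between libraries and in part between the groups. Within each library the deviation of genes from their mean was fitted against transcript GC content, and the slope per 10 points of GC ran from −0.32 (log2) in core plus R. intestinalis replicate 2 to 0.57 in its replicate 1. The core slopes were −0.31, 0.07 and −0.30, and those of core plus R. intestinalis replicates 3 to 5 were 0.04, 0.01 and 0.23. Hoxb13, a gene of the distal colon, spanned 25.3 to 439 among core libraries and 2.16 to 663 among the others. Its part in the results, like that of the GC slopes, was not tested beyond the values given below.

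The promoters of 3 members are shown because their genes stand for the patterns described below: Rsu1 and Lims1, which were lower in every library with R. intestinalis than in any core library, and Vcl, which was not. They are RefSeq starts on GRCm38.p6, a different build from the mm9 that the submitters' processing notes name, and are used here only for their letters. The Rsu1 window is chr2:13271416-13271665 (minus strand), the Lims1 window chr10:58323297-58323465 (plus strand, upstream of 1 of 3 starts, ending where an annotated Lims1 exon begins) and the Vcl window chr14:20929148-20929397 (plus strand). Capitals mark the CArG box (the serum response factor motif, searched by name), GGGCGG and CCAAT, each on both strands and counted with overlaps.
Rsu1: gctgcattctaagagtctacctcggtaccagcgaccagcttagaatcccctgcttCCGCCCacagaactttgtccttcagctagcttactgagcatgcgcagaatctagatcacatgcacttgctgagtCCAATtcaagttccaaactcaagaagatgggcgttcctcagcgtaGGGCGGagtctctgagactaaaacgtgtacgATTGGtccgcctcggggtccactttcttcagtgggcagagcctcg
Lims1: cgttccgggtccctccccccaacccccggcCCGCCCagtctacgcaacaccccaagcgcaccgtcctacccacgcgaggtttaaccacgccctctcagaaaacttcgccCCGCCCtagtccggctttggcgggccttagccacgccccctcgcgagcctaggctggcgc
Vcl: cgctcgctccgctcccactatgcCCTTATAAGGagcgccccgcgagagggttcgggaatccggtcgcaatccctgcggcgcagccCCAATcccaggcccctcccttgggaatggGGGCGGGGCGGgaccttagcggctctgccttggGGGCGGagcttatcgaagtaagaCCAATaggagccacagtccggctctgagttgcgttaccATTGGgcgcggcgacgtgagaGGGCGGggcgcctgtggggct

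The Vcl window held 1 CArG box, 4 GGGCGG and 3 CCAAT motifs. The Rsu1 window held 2 GGGCGG and 2 CCAAT motifs and no CArG box, and the shorter Lims1 window, as printed, 2 GGGCGG motifs. Among all 32851 RefSeq windows of 250 bases upstream of a start, 1.47% held a CArG box, 32.7% GGGCGG and 33.8% CCAAT. The table held starts for 7 members (10 windows in all), and the Vcl window was the one with a CArG box. Parva, Pxn and Lgals1 had no entry.

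Rsu1, whose protein binds PINCH-1 and limits signalling from Ras, was lower in all 5 libraries with R. intestinalis than in any core library. Its normalized values, the authors' estimated reads per gene scaled for each library, were 1221, 1099 and 1061 in core replicates 1 to 3. With R. intestinalis they were 581, 910.1, 689, 745 and 614 in replicates 1 to 5. The groups did not overlap, with core libraries close together and replicate 2 the highest of the other group. The means were 1127 ± 83.5 (SD, n = 3) and 708 ± 130.02 (SD, n = 5), a log2 difference, on the log2(value + 1) scale, of −0.69 (SE 0.157). This difference took Rsu1 into the set, so it carries no test. In bulk tissue, fewer cells of a type and less RNA per cell cannot be told apart.

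Lims1, encoding the LIM-domain adaptor PINCH-1 that links ILK to RSU1, ran the same way with a smaller difference. Its values were 1026, 885 and 855 in core and 558, 849.7, 749.6, 702 and 706 with R. intestinalis. The groups did not overlap, but core replicate 3 and core plus R. intestinalis replicate 2 were almost level. The means were 922 ± 91.0 (SD, n = 3) and 713 ± 105 (SD, n = 5), a log2 difference of −0.38 (SE 0.150).

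Ilk, the scaffold kinase at the centre of the complex, overlapped between the groups. Its values were 698, 899 and 659 in core and 893, 691, 561, 592 and 578 with R. intestinalis (log2 difference −0.19, SE 0.180). Parva, encoding the actin-binding α-parvin, was at 1057, 1130.5 and 872 in core and 1258, 909, 853, 849.7 and 897 with R. intestinalis (log2 difference −0.11, SE 0.159). In both genes core replicate 2 and core plus R. intestinalis replicate 1 were the highest 2 of the 8 libraries. Of the 4 genes of the complex, Rsu1 and Lims1 thus had groups apart and lower, while Ilk and Parva did not. Over all genes tested, the share apart and lower was 3.31%. Rsu1 was chosen for this difference, and Lims1 overlapped after the GC correction and after quantile normalization, both described below.

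Ratios taken within a library do not depend on how libraries were scaled, and among the 4 genes of the complex they separated the groups for Rsu1 over Lims1 but not for either gene over Ilk or Parva. The ratio of Rsu1 to Lims1 was 1.19 to 1.24 in core and 0.870 to 1.07 with R. intestinalis, without overlap. The ratio of Rsu1 to Ilk was 1.22 to 1.75 in core and 0.650 to 1.32 with R. intestinalis, and that of Rsu1 to Parva 0.972 to 1.22 and 0.462 to 1.00, both with overlap. The ratio of Lims1 to Ilk was 0.984 to 1.47 in core and 0.624 to 1.34 in the other group, and that of Lims1 to Parva 0.783 to 0.980 and 0.443 to 0.935, again with overlap. The ratio of Parva to Ilk was 1.26 to 1.51 and 1.32 to 1.55. Outside the complex, Rsu1 over Vcl also separated the groups (0.654 to 0.927 in core, 0.331 to 0.650 with R. intestinalis). Lgals1 over Rsu1 did not. Rsu1 was chosen for its lower values with R. intestinalis, so its ratios carry that choice. The share of separated ratios among all pairs of genes was not counted. These ratios were not corrected for transcript GC content, which was 47.5% for Rsu1, 45.7% for Lims1, 55.3% for Ilk and 49.3% for Parva.

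**Figure D1:**
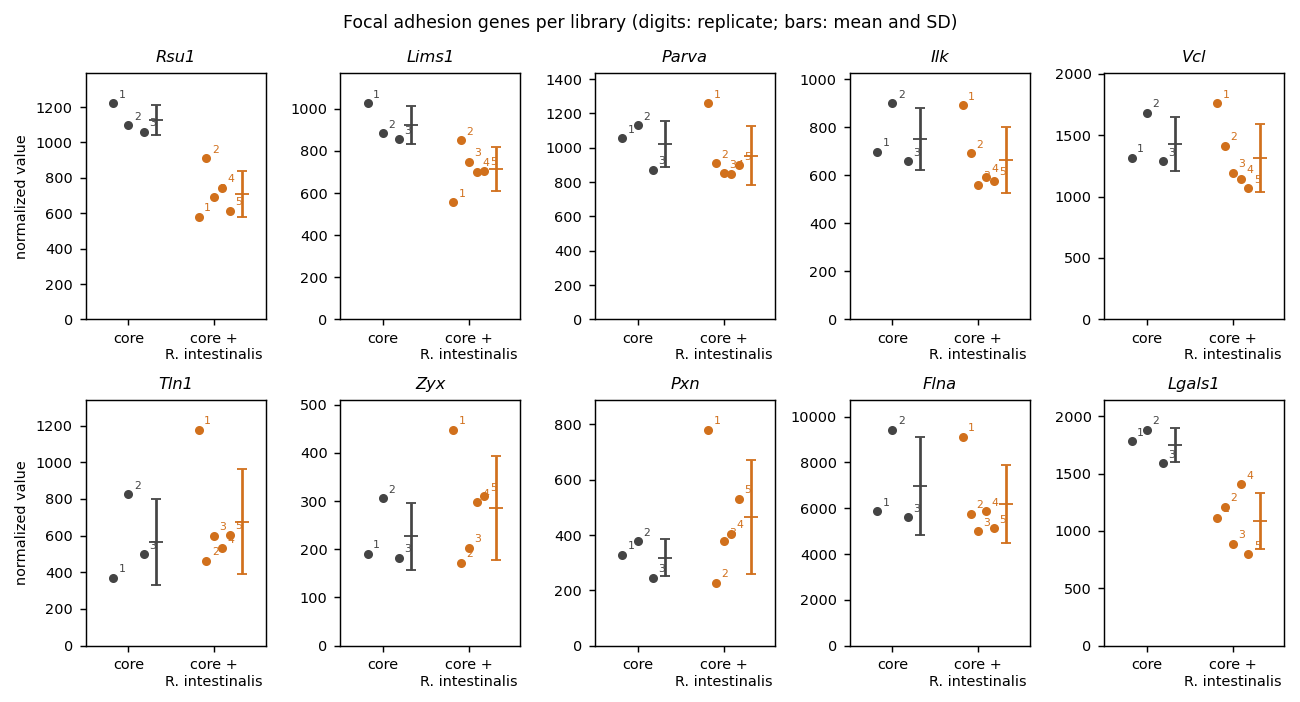
Normalized value (vertical axes, starting at 0) of the 10 genes in each core (grey, n = 3) and core plus R. intestinalis library (orange, n = 5), with the replicate number beside each point and mean and SD as bars. The groups do not overlap for Rsu1, Lims1 and Lgals1, and replicate 1 with R. intestinalis is highest of its group for Ilk, Parva, Vcl, Flna, Tln1, Zyx and Pxn.

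The actin-binding partners overlapped between the groups. Vcl, encoding vinculin, the clutch between talin and actin, was at 1317, 1681 and 1288 in core and 1758, 1413, 1192, 1146 and 1069 with R. intestinalis (log2 difference −0.13, SE 0.177). Flna, encoding the actin cross-linker filamin A, was at 5865, 9426 and 5620.5 in core and 9131, 5770.0, 4986, 5868 and 5118 (log2 difference −0.17, SE 0.231). As for Ilk and Parva, core replicate 2 and core plus R. intestinalis replicate 1 were the highest 2 libraries for both genes.

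Tln1, Zyx and Pxn had higher means with R. intestinalis, again with overlap. Tln1, encoding talin-1, which activates integrins, was at 371, 826 and 499 in core and 1177, 463, 599, 532 and 605 with R. intestinalis (log2 difference 0.25, SE 0.317). Zyx, encoding zyxin, a LIM protein of strained actin cables, was at 191, 307 and 183 in core and 448, 173, 203, 297 and 311 (log2 difference 0.30, SE 0.302). Replicate 1 with R. intestinalis was the highest library in both genes. Pxn, encoding the adaptor paxillin, was at 329, 378 and 246 in core and 781, 228, 379, 405 and 532 (log2 difference 0.46, SE 0.331). Here 4 of 5 libraries with R. intestinalis lay above all core libraries and replicate 2 lay below them. Over the 8 libraries Pxn ran 3.43-fold from lowest to highest and Tln1 3.17-fold, against 1.48-fold for Parva and 2.10-fold for Rsu1.

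Lgals1, encoding galectin-1, a secreted lectin that binds matrix and integrin glycans, was the member with the lowest log2 difference. Its values were 1781, 1881 and 1592 in core and 1114, 1209.8, 889.9, 1408 and 799 with R. intestinalis. The groups did not overlap, with a gap between core replicate 3 and core plus R. intestinalis replicate 4. The log2 difference was −0.72 (SE 0.184), and like that of Rsu1 it was the reason for including the gene. Summed fibroblast markers also had groups apart, at 10241 to 11709 in core and 6727 to 9349 with R. intestinalis. Of the 12 markers, 4 had groups apart and lower (3.31% of all genes tested did), while Dcn and Col1a1 overlapped. The part of fibroblast levels in these differences was not tested.

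Read against all genes, 3 of 10 members had groups apart and lower with R. intestinalis, where 3.31% of the 13020 genes with a mean of at least 10 did, and 0 were apart and higher (2.53%, or 5.84% in either direction). All 10 members passed that filter. Without Rsu1 and Lgals1, 1 of 8 was apart. The median log2 difference was −0.15 over the 10 members and −0.12 over those 8, against −0.0035 over all genes tested. The authors' deposited table called 2 members lower at a posterior probability of at least 0.95 (0.288% of its genes) and 0 higher (0.194%). The pair was Rsu1 and Lgals1, with deposited fold changes of 0.63 and 0.62. Its probability for Lims1 was 0.17 at a fold change of 0.77, and for the other 7 it was at most 0.01. With limma, 0 of 13020 genes had a Benjamini-Hochberg adjusted p below 0.05 (0% lower and 0% higher), while 1058 (8.13%) had an unadjusted p below 0.05.

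**Figure D2:**
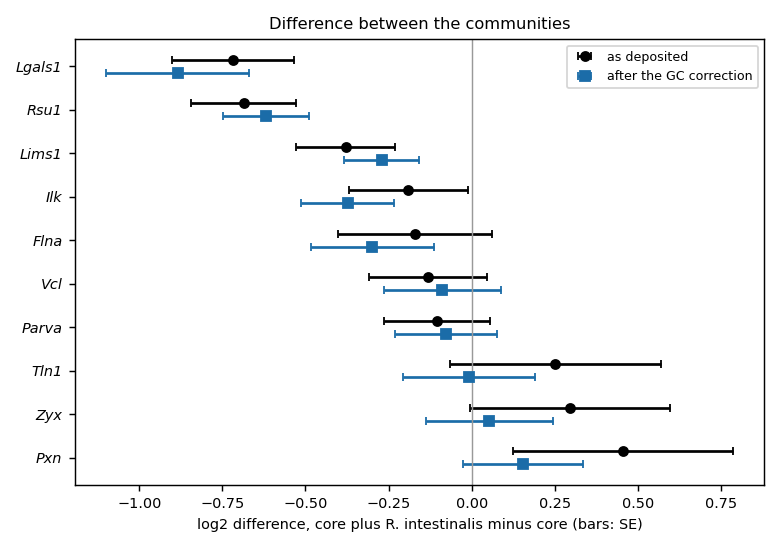
Log2 difference between the communities (points) with its SE (bars) for each member, from the deposited values (black) and after each library was corrected for transcript GC content (blue). Rsu1, Lims1, Lgals1, Ilk, Parva, Vcl and Flna lie below 0 in both, while Tln1, at 0.25 from the deposited values, lies at −0.01 after the correction.

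GC content differed among the members. The principal transcripts of Tln1, Zyx and Pxn, with 57.0%, 56.6% and 58.0% GC, were richer than the median of 50.2% over 11749 tested genes with a transcript. Those of Rsu1 and Lims1 held 47.5% and 45.7%, and that of Lgals1 54.9%. The library with the highest GC slope, core plus R. intestinalis replicate 1, was also the highest for Tln1, Zyx and Pxn and the lowest for Rsu1 and Lims1. When each library's trend on GC was removed, a step chosen after the data were seen, the log2 differences became −0.01 for Tln1, 0.05 for Zyx and 0.16 for Pxn. For Ilk and Flna they became −0.37 and −0.30. Rsu1 stayed apart at −0.62 (SE 0.130), and Lgals1 at −0.88 (SE 0.215). Lims1, at −0.27 (SE 0.112), no longer had groups apart, with corrected values of 789.7 to 942 in core and 645 to 790.8 with R. intestinalis.

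Likeness of the members' profiles over the 8 libraries was measured as the root mean square difference between genes in log2(value + 1), each gene centred on its own mean, so that 0 is an identical profile. From Rsu1 the distance was 0.18 to Lims1, 0.22 to Lgals1, 0.40 to Ilk and 0.86 to Pxn, against a median of 0.44 to all 10168 other genes with a mean of at least 50. Lims1 ranked 86 in likeness to Rsu1 and Lgals1 339. Centred within each group, which leaves out the difference between the communities, Lims1 ranked 118 and Lgals1 3451. Lims1 and Lgals1 were at 0.33 from each other, and the median distance from Lims1 to all genes was also 0.33. From Lgals1 that median was larger, at 0.49, and Lims1 ranked 947. Rsu1 and Lgals1 were both chosen for their difference between the communities, which enters their distance.

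Ilk and Vcl were each other's nearest gene of all 10168, at a distance of 0.063, also when centred within groups. Parva (distance 0.10) and Flna (0.12) ranked 9 and 19 from Ilk. Zyx was at 0.22 from Pxn and 0.26 from Tln1. Some of these distances moved after the GC correction and others hardly did. Zyx was then at 0.20 from Pxn and 0.27 from Tln1. Vcl ranked 913 from Ilk, at a distance of 0.23, among 9219 genes, while Parva ranked 20 from Vcl and Tln1 68. From Rsu1, Ilk then ranked 101, Lims1 239 and Lgals1 574.

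**Figure D3:**
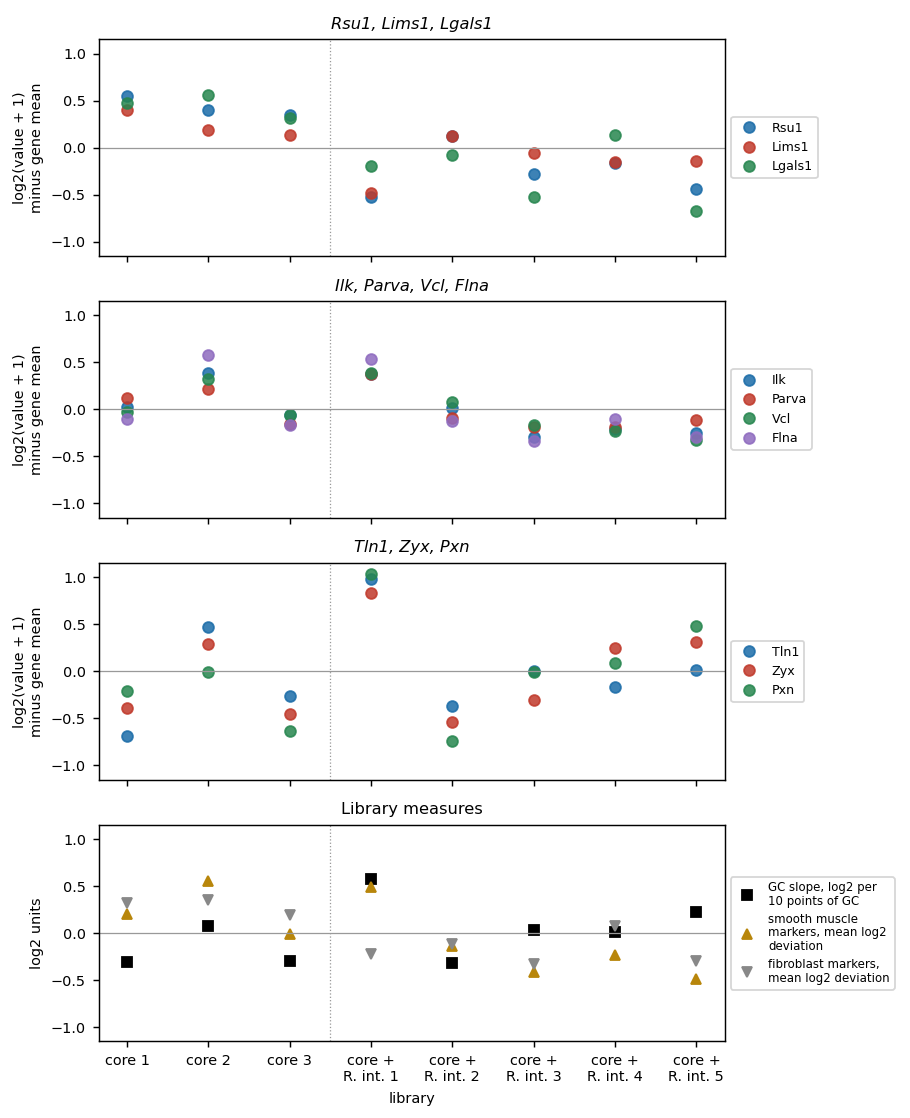
Log2(value + 1) minus the gene's mean (vertical axes) for the members in 3 panels, arranged after the values were seen, by library (horizontal axis, dotted line between the communities), and in the lowest panel each library's GC slope with the mean log2 deviation of smooth muscle and fibroblast markers. Rsu1, Lims1 and Lgals1 are above their mean in all 3 core libraries, and Tln1, Zyx and Pxn are highest where the GC slope is highest, at 0.57.

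**Figure D4:**
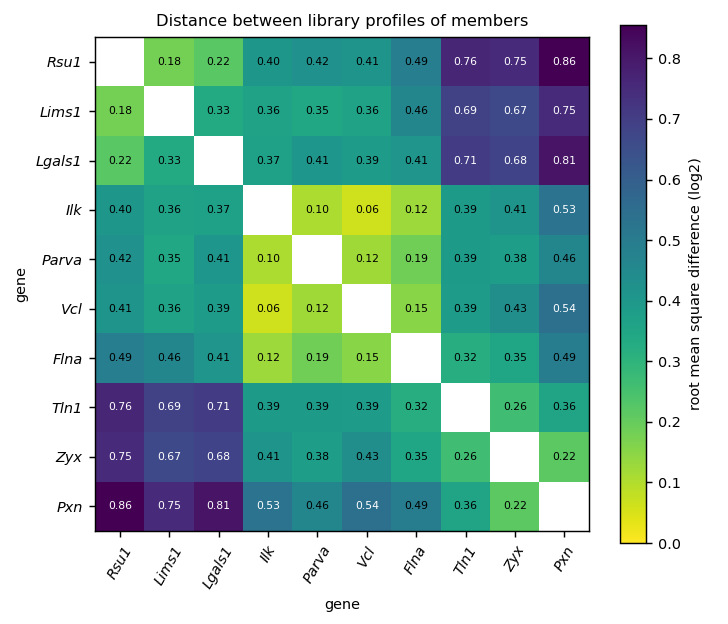
Root mean square difference in log2 units between the 8-library profiles of each pair of members (color scale, values printed). Ilk and Vcl are closest, at 0.06, and Rsu1 and Pxn farthest apart, at 0.86.

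The 5 genes most like Rsu1 over the 8 libraries were Taf9b, Nrp1, Gng10, Pds5b and Fsd1l, at distances of 0.11 to 0.12. Nrp1, a co-receptor for semaphorins and vascular endothelial growth factor, averaged 357 ± 22.1 (SD, n = 3) in core and 249.6 ± 40.7 (SD, n = 5) with R. intestinalis. Taf9b, a subunit of the general transcription machinery, averaged 269 ± 26.7 and 175 ± 33.2, and the groups were apart in Taf9b, Nrp1 and Fsd1l. The distance that chose these genes includes the difference between the communities, for which Rsu1 itself was chosen. Their lower means and separate groups therefore follow in part from that choice. Centred within groups, the nearest were Bmi1, Gng10, Gcap14, Trove2 and Nhp2l1, at 0.044 to 0.054, so that Gng10, a G protein γ subunit, was among the first 5 both ways. Transcript GC content was 36.8% to 50.01% in the 5 first named, and 40.2%, 46.7% and 37.8% in Bmi1, Gng10 and Trove2.

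Levels per kilobase of principal transcript (GENCODE M21) give the order of the members. In core libraries Lgals1 was first, at 2189 ± 183 (SD, n = 3) per kb, followed by Flna at 824 ± 252, Rsu1 at 729 ± 54.0 and Lims1 at 589 ± 58.1. Ilk was at 419 ± 71.9, Vcl at 271 ± 41.5 and Parva at 229 ± 29.8. Pxn, Zyx and Tln1 were lowest, at 85.6 ± 18.03, 71.1 ± 21.7 and 67.4 ± 27.9. The order of the means was the same with R. intestinalis, from 1355 ± 307 (SD, n = 5) for Lgals1 to 80.4 ± 34.1 for Tln1. Neighbours whose ranges overlapped in core were Flna and Rsu1, Vcl and Parva, Pxn and Zyx, and Zyx and Tln1. With R. intestinalis Rsu1 and Lims1 came level, at 458 ± 84.1 and 456 ± 67.3 per kb, and the ranges of all neighbours overlapped except Flna and Rsu1.

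Annotation on GRCm38 places other genes on the opposite strand of some members. Exons of Taf10 cover 76.7% of the exonic bases of Ilk over all its transcripts, those of Ap3m1 25.5% of Vcl, and Creb3 and Epha1 under 5% of Tln1 and Zyx. The libraries were stranded, but no source used here says whether counting used strand, so reads of these partners cannot be told apart from those of the members. Taf10 was listed at 179 to 244 in core and 170 to 265 with R. intestinalis, below Ilk in every library. Rrp8, which covers 12.9% of Ilk, was at 110.2 to 135 and 88.1 to 131. Ap3m1 was above Vcl in core replicates 1 (1489 against 1317) and 3 (1370 against 1288) and in core plus R. intestinalis replicate 4 (1185 against 1146). Epha1, at 130.2 to 234 in core and 225 to 377 in the other group, was above Zyx in core replicate 3 and in replicates 2 and 3 with R. intestinalis.

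Other adhesion genes, from 6 lists, put the members in context. Of 91 list genes that are no members, 87 could be tested, and by limma 0 were lower and 0 higher at an adjusted p below 0.05 over all genes, with a smallest adjusted p of 0.588. At an unadjusted p below 0.05, 6 were lower (3.69% of all genes were) and 4 higher (4.44%). Groups were apart and lower for 3 of the 87, Itga8, Rap1a and Lpp (3.31% of all genes were), and apart and higher for 0 (2.53%). Their median log2 difference was 0.081, with 38 below 0 and 49 above.

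Among paralogs in the complex, Lims2, encoding PINCH-2, a second adaptor that binds ILK, averaged 298 ± 155 (SD, n = 3) in core and 308 ± 157 (SD, n = 5) in the other group. Its 2 highest libraries were core replicate 2 (477) and core plus R. intestinalis replicate 1 (588), as for Ilk. Parvb averaged 18.1 and 16.7, and Parvg, the leukocyte parvin, 17.8 and 22.0. Nck2, an adaptor that binds PINCH-1, averaged 161 ± 15.2 and 223 ± 93.9, and the phosphatase gene Ilkap 325 ± 9.86 and 339 ± 33.9. Of the 5 genes of this list that are no members, 1 was below 0.

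Among 18 integrin subunits tested, 8 were below 0 and the median was 0.021. Itga8, a receptor chain of smooth muscle and mesenchyme, averaged 174 ± 20.7 (SD, n = 3) and 112 ± 19.2 (SD, n = 5), with groups apart (log2 difference −0.64, limma adjusted p = 0.588). Itga1, a collagen receptor chain, averaged 602 ± 135 and 428 ± 70.9. Itgb1, the β1 chain whose tail binds talin, kindlin and ILK, averaged 5221 ± 435 and 4050 ± 891, with 3 of 5 libraries below all core libraries. No chain passed the threshold.

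Among 12 regulators of integrin activation, 7 were below 0. Rap1a, a small GTPase that brings talin to integrins, averaged 492 ± 43.9 (SD, n = 3) and 367 ± 59.4 (SD, n = 5) with groups apart. Fermt2, encoding kindlin-2, which binds ILK, averaged 779.6 ± 75.9 and 593 ± 112. Dok1, which competes with talin, averaged 25.2 ± 6.58 and 42.0 ± 9.56. Tln2, the other talin, averaged 105 ± 24.3 and 120.2 ± 32.4.

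The signalling adaptors had the highest median of the 6 lists, 0.39, in the direction of Pxn. Of these 18 genes, 14 were above 0, where 6452 of all 13020 genes tested were. Groups were apart for 0 of the 18 (5.84% of all genes tested). Pxn itself moved from 0.46 to 0.16 after the GC correction, and the part of GC content in this median was not tested. Elmo1, a partner of the Rac activator DOCK1, averaged 64.0 ± 14.3 (SD, n = 3) and 108 ± 33.9 (SD, n = 5), Nedd9 1126 ± 47.7 and 1462 ± 203, and Arhgef7 126 ± 36.6 and 183 ± 48.6. The paxillin paralog Tgfb1i1 averaged 254 and 415. Its highest library was core plus R. intestinalis replicate 1, at 969, and no other exceeded 334. Lpxn averaged 25.9 and 30.1.

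Among 26 other actin linkers, 14 were below 0, with a median of −0.077. Lpp, a zyxin relative of smooth muscle, averaged 2381 ± 407 (SD, n = 3) and 1708 ± 111 (SD, n = 5) with groups apart, whereas Zyx and Trip6, the third of that family, had higher means with R. intestinalis (Trip6 51.9 ± 22.5 and 58.0 ± 14.0). Sorbs2 averaged 737.5 ± 85.8 and 563 ± 58.5. Flnc, the filamin of striated muscle, averaged 340.1 ± 131 and 313 ± 122. Of 8 other genes tested in the galectin list, 4 were below 0 and the lowest log2 difference was −0.11, against −0.72 for Lgals1. That list includes Lgals3bp, which encodes a galectin-binding protein and not a galectin. Lgals3, an epithelial galectin, averaged 8916 ± 1079 and 10619 ± 2157, Lgals4 36890.2 and 33913, Lgals9 1330.2 and 1303, and Lgals3bp 1103 and 1352.

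**Figure D5:**
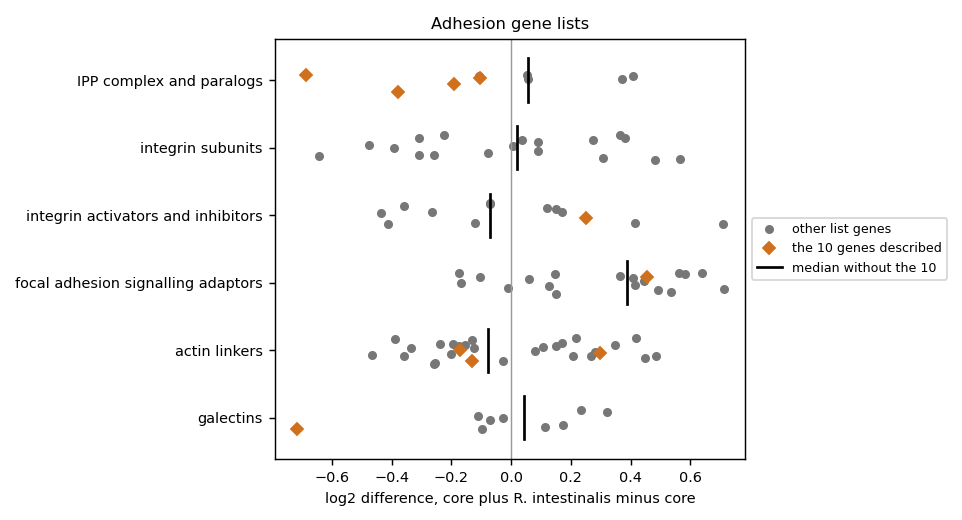
Log2 difference between the communities for each tested gene of 6 adhesion lists, with the 10 genes described as orange diamonds, the other list genes as grey points and their median as a bar (vertical jitter for display). Lgals1 and Rsu1 lie at −0.72 and −0.69, while the medians of the other list genes run from −0.077 to 0.39.

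Markers of the cell types in the gut wall were read in the same libraries. Epithelial and smooth muscle markers were high in all libraries, with Epcam at 11501 to 14865 and Myh11 at 20744 to 43626. No marker in the table was at 0 in every library. Of the fibroblast markers whose sums are given above, 10 of 12 had a log2 difference below 0. Smooth muscle markers had 11 of 12 below 0 and summed to 165393 to 225988 and 109671 to 196650.0, highest in core replicate 2 (225988). Core plus R. intestinalis replicate 1, at 196650.0, was level with core replicate 1, at 196533. Among the members, Ilk, Flna and Lgals1 were highest in core replicate 2 too. Parva, Vcl, Tln1, Zyx and Pxn were highest in core plus R. intestinalis replicate 1, and Rsu1 and Lims1 in core replicate 1. Groups were apart and lower with R. intestinalis for 3 of 12 smooth muscle markers (3.31% of all genes tested were). Acta2 was at 30940 to 39632 in core and 18076 to 26929 with R. intestinalis. Tagln was at 28294 to 38189 and 16473 to 27804, while Myh11 and Des overlapped between the groups.

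Adipocyte markers had 7 of 7 tested below 0 and summed to 1777 to 4531 in core and 483 to 2605 with R. intestinalis. Endothelial markers had 5 of 9 below 0 (sums of 1045 to 1413 and 939 to 1156), neuron and glia markers 6 of 9 (875 to 1093 and 564 to 995), and leukocyte markers 5 of 9 (2618 to 3375 and 1179 to 4090.1). Epithelial markers had 1 of 11 below 0 (153134 to 307947 and 179809 to 346992). Of the mesothelial markers 4 of 5 were below 0, though their sum was mostly Krt19, shared with the epithelial list, and Upk3b was at 24.0 to 76.6. Skeletal muscle markers had 1 of 3 below 0 (sums of 492 to 656 and 249.8 to 673), and Myh4 of that list was not in the table. By limma 0 markers of any list passed the adjusted threshold. The part of the fibroblast, smooth muscle and adipocyte levels in the differences of the 10 genes was not tested.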

How the data were processed

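RNA from 8 libraries (3 core, 5 core plus R. intestinalis) was read from 1 table. Per the submitters' processing notes, Bowtie2, RSEM 1.2.23 and mm9 were used, with no role or order. From the values, the deposited signal is estimated reads per gene divided by 1 factor per library, not per length. The authors' posterior probability of differential expression is a score, and their deposited fold change is a ratio with the core group as denominator. The sources used here name neither the gene annotation nor the comparison tool. No column of per-sample values was left unused (0 columns).

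Depth was the sum of values over the step on which low values fell (79.9% to 84.3% of values under 30 within 0.05 of a step), so whole reads were not assumed and intervals of counting error are not given. Genes were analysed on the log2(value + 1) scale, where changes at low values are understated, for those with a mean of at least 10, with limma 3.58.1 in R 4.3.3 (mean-variance trend, Benjamini-Hochberg over 13020 genes), tested on simulated data. Members and lists were chosen with earlier results of these data known. Besides the 10 members, the named genes were paralogs of members, up to 3 genes per adhesion list with the smallest p, the 5 genes most like Rsu1 in each centring, and leading markers; Hoxb13, Apoe and the antisense neighbours were added after values were seen. Predicted genes, Riken clones and ribosomal protein genes were not named. 1 gene that this rule names is not reported here. Transcript length and GC came from GENCODE M21 principal transcripts by symbol (90.2% of tested genes) and promoters from RefSeq. Alternatives were other pseudocounts (0.5 and 5), other filters (none, or at least 50 on average), rescaling by trimmed M values, quantile normalization, the replicate number as a block, and each library left out. A GC correction (lowess, span 0.3) and leaving out 2 libraries together were added after the data were seen.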

Additional observations from a re-analysis of the deposited data

Results flagged for a closer look

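In 3 members the library of core plus R. intestinalis replicate 1 stood far from the other 4 of its group, with a gap to the nearest that took up more than 0.71 of the group's range. Parva was at 1258 there and at most 909 in the others, Tln1 at 1177 against at most 605, and Flna at 9131 against at most 5868. Such gaps were looked for in 19 sets of values (10 members and 9 summed marker lists), and chance alone gives about 1 in 20. The same library had the highest GC slope, 0.57. After the GC correction Parva, with 49.3% GC, was still at 1268 there and at most 916 in the others, while Tln1 was at 807 against at most 579 and Flna at 7302 against at most 6176.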

How the results depend on the processing

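Rsu1, Lims1, Parva, Ilk and Lgals1 kept a negative log2 difference under all 17 alternatives, with ranges of −0.78 to −0.62 for Rsu1, −0.45 to −0.27 for Lims1 and −0.88 to −0.62 for Lgals1. Zyx (0.053 to 0.53) and Pxn (0.16 to 0.68) stayed above 0. Flna turned to 0.068 without core replicate 2, Tln1 to −0.011 without core replicate 1 and −0.0082 after the GC correction, and Vcl to 0.018 with the replicate number as a block. The members' median ran from −0.27 to −0.019, the latter without core replicate 2. Leaving out libraries cannot make groups overlap that were apart, so only a change of the values could end a separation. Rsu1 and Lgals1 stayed apart after rescaling by trimmed M values, quantile normalization and the GC correction. Lims1 stayed apart after the first of these and overlapped after the other changes. Pxn came apart, higher, without core plus R. intestinalis replicate 2. Leaving out 1 library gave 0 to 1 genes past the threshold over the whole table, the 1 without core replicate 1, and 270 to 1908 genes with an unadjusted p below 0.05 (270 without core replicate 1, and 701 and 1908 without replicates 3 and 2 of the other group). The 10 adhesion list genes below that p became 2, 6, 18 and 6 without core replicate 1 and replicates 3, 2 and 5 of the other group, and 2 with the block. The median of all genes, −0.0035, became 0.015 with no filter on low values. With the replicate block Rsu1 stood at −0.65, 0 genes passed and 395 rather than 1058 had an unadjusted p below 0.05. Libraries with the same replicate number did not deviate together (correlations of −0.12, −0.53 and −0.07). Of the core libraries, 0 of 3 correlated best with their own number. The core replicate numbers are not the numbers in the sample names. Neither the block nor these correlations can therefore show whether the mice were paired, and pairing by sample name was not tested. The cause of these shifts was not tested.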

Other observations

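The genes nearest to the other members over the 8 libraries, singled out after the values were seen and by the same distance, were of mixed kinds. Nearest to Lgals1 were Pkia, Acta2, B3galnt1, Myl9 and Slc25a4, at 0.11 for the first, among them the smooth muscle actin Acta2 and myosin light chain Myl9. Lgals1 was chosen for its difference between the communities, which enters this distance. Centred within groups, its nearest were Tubb6, Slc25a4, Itgb1bp1, Fermt2 and Tnc, with neither Acta2 nor Myl9 among them. Nearest to Flna were Eml1, Csrp1, Marveld1, Arhgef25 and Amigo1 (0.042 for the first), of which Csrp1 encodes a LIM protein of smooth muscle. Nearest to Zyx were Myc, Ubap2, Cdc42ep1, Ltbr and Pacs1 (0.091 for the first). Nearest to Lims1 were Kitl, Tmtc3, Wwp1, Fubp1 and Synj2bp (0.060 for the first).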
